A study of Homo sapiens with 12 samples.

Results

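EGR1, EGR2, EGR3, IER2, IER3, IER5, SERTAD1, KLF6, KLF10 and ZFP36 are immediate early genes outside the AP-1 family, and they were found in the count table by gene symbol, 10 of 58735 genes. They had been chosen because earlier results on these same samples showed several of them with different read counts after drug treatment, so their own differences are given below as a description, with no p-value. RNA was sequenced from HK-2 cells, an immortalized human proximal tubule epithelial line, in 12 samples of 4 groups, 3 samples each. The control group received water (H2O), the iohexol group 75 mg I/mL of this iodinated contrast medium, the cisplatin group 5 μM of this platinum anticancer drug, and the vancomycin group 4 mM of this glycopeptide antibiotic. The drugs were given for 48 h, each at 1 dose, and the labels give no time for the controls. All samples came from 1 cell line, and the labels do not say whether the 3 samples of a group were separate cultures, so the spread and the p-values measure the variation between these samples only.

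Immediate early genes are transcribed within minutes of a growth factor, stress or injury signal, without new protein synthesis. The ERK cascade phosphorylates ETS cofactors that sit with serum response factor (SRF) on the CArG box of their promoters, and CREB acts through the CRE. Most of their mRNAs are short-lived, in part through AU-rich elements in the 3′ UTR. In the kidney tubule, EGR1 is known as an early marker of ischemic and toxic injury. EGR1, EGR2 and EGR3 are zinc finger transcription factors that bind a GC-rich site, KLF6 and KLF10 are Krüppel-like zinc finger factors that bind GC-rich promoters, and KLF10 is also known as a TGF-β-inducible gene. IER2 and IER5 are nuclear regulators, IER5 acting with heat shock factor 1, and IER3 is a stress-inducible regulator of cell survival. SERTAD1 binds CDK4 and acts as a transcriptional co-regulator with E2F and DP proteins. ZFP36, also called tristetraprolin, binds AU-rich elements and brings about the decay of the mRNAs that carry them.

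The promoter sequences of 4 genes are shown because EGR1 and EGR2 carry the classical early gene elements while IER5 and SERTAD1 have no match to them in these windows. Windows of 300 bases, from 250 before to 50 after the transcription start, came from RefSeq on GRCh38.p14, as 9 windows for 7 of the 10 genes, and IER3, EGR3 and KLF10 were not analysed here. The EGR1 window lies at chr5:138465229-138465528 on the plus strand, and the EGR2 window shown, its window 3, at chr10:62816317-62816616 on the minus strand. The IER5 window lies at chr1:181088450-181088749 on the plus strand, and the SERTAD1 window at chr19:40425943-40426242 on the minus strand. Each sequence is written 5′ to 3′ on the strand of the gene. Capitals mark CArG boxes and the CRE half-site TGACG, or its reverse complement CGTCA.
EGR1: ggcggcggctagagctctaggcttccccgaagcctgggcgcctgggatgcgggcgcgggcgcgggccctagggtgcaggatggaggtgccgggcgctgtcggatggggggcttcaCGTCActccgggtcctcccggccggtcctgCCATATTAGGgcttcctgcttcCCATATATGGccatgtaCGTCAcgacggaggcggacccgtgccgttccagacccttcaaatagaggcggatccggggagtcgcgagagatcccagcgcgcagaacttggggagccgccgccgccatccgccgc
EGR2: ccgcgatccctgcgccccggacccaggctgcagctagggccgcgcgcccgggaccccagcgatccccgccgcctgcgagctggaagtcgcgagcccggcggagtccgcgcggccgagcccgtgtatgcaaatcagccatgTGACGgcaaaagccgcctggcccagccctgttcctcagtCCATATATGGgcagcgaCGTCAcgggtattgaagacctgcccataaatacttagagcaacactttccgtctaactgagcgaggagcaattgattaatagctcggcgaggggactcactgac
IER5: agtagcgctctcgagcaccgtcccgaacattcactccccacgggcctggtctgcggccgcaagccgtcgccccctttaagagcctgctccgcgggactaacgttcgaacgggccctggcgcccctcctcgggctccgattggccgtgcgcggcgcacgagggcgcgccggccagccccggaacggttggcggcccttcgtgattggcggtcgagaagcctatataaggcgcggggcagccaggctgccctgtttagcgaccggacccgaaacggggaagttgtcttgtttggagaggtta
SERTAD1: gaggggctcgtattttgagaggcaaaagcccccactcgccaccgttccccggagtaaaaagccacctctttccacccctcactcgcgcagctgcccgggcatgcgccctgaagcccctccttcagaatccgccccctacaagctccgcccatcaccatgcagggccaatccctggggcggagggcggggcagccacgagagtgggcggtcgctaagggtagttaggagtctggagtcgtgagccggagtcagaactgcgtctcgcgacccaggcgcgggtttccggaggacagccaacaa

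The EGR1 window held 2 CArG boxes, at -105 to -96 and -83 to -74 from the start, and 2 TGACG half-sites. The EGR2 window shown held 1 CArG box at -71 to -62 and 2 TGACG half-sites. Both strands were searched, and a CArG box had to match CCWWWWWWGG exactly, W being A or T. A CArG box was found in 1.29% of all 35116 RefSeq windows of this length, and among these genes only in EGR1 and EGR2. TGACG was in the windows of 3 genes (EGR1, EGR2 and IER2) and in 24.6% of all windows, and the full CRE TGACGTCA was in none of them and in 1.85% of all windows. The EGR binding site GCGNGGGCG was in a window of EGR1, EGR2 and KLF6 and in 9.43% of all windows. The GC box GGGCGG, which can overlap the EGR site, was in windows of 5 genes and in 45.0% of all windows, and SERTAD1 held 5 of them while IER5 held none. A match or its absence is a description of the letters in these windows alone, and binding was not measured here. Any part of these motifs in the levels was not tested.

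**Figure D1:**
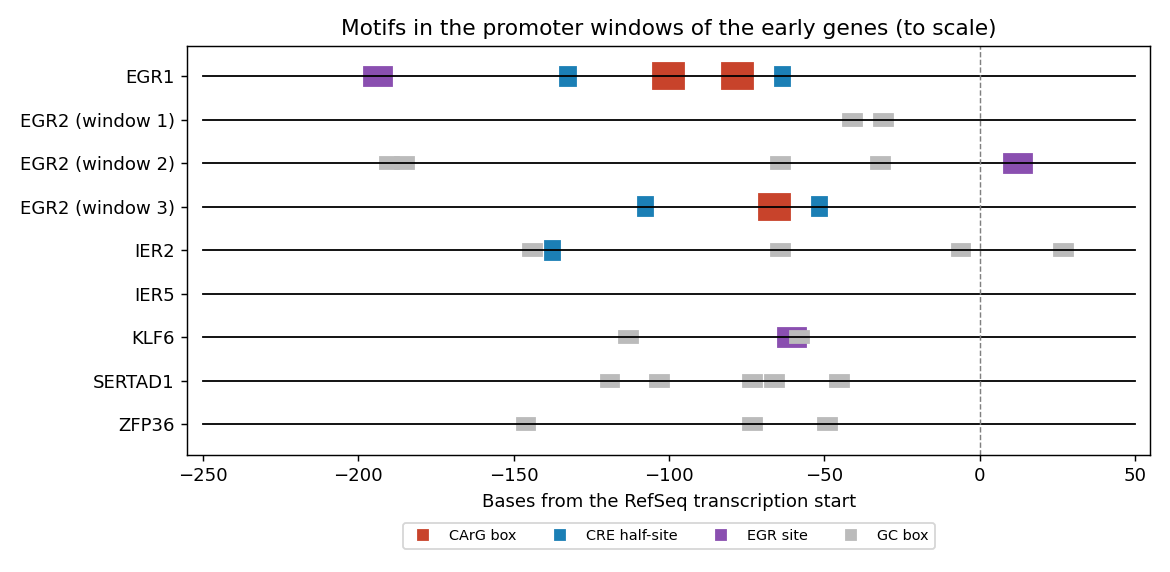
Motif matches in the 9 RefSeq promoter windows of 7 early genes, drawn to scale against distance from the transcription start in bases (dashed line: start). CArG boxes appear only in EGR1 and window 3 of EGR2, and the IER5 window has none of the 4 motifs.

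The 3′ UTRs differed in their AUUUA pentamers, the core of the element that ZFP36 binds. Stretches of 29 bases from the 3′ UTRs of 5 of the genes are shown as DNA, from GENCODE 29 on GRCh38, because they carry the densest pentamers of each gene, in capitals. The ZFP36 stretch is at chr19:39409189-39409217 on the plus strand, the IER3 stretch at chr6:30743648-30743676 on the minus strand and the IER5 stretch at chr1:181092449-181092477 on the plus strand. The KLF6 stretch is at chr10:3778791-3778819 on the minus strand and the EGR1 stretch at chr5:138469064-138469092 on the plus strand.
ZFP36: ctttATTTAtgacgactttATTTAttcta
IER3: aattaatATTTAtatgtATTTAtgtacgt
IER5: tcctttATTTATTTATTTATTTAattata
KLF6: tATTTAcaaatataacacaacaATTTAac
EGR1: ctgaaaatgtaaATTTAtaaatatattca

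ZFP36 had 5 pentamers, 7.01 per kb of 3′ UTR, IER3 had 6, 6.64 per kb, and IER5 had 10, 3.32 per kb. Over 16892 genes the median was 1.71 per kb and the 90th percentile was 4.60 per kb, below the values of ZFP36 and IER3. The longer nonamer TTATTTATT occurred 3 times in IER5 and 1 time in ZFP36, and in 9.15% of all genes. EGR1 had 1 pentamer in 1234 bases, KLF6 had 6 in 3556 bases and IER2 had none in 1050 bases. Of the 2 densest, IER3 was called with no drug and ZFP36 with vancomycin. Any part of the pentamers in these calls was not tested.

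Levels are given as CPM, that is, the read count scaled by the library total times its TMM factor. Library totals were between 14057282 and 18177109 counts, and 3 counts, taken as the floor, corresponded to 0.178 to 0.218 CPM, a limit that covers counting error only. Replicates differed beyond counting noise in every pair (chi-square per degree of freedom 2.28 to 15.5), so none was counted as a repeat. A gene is called where its edgeR p, adjusted over all genes tested, was under 0.05 and its log2 fold change lay beyond 1 in either direction. The cell line held little of the proximal tubule programme, with 3 of 10 markers over 1 CPM in the control group and the organic anion transporter SLC22A6 at 0 in every sample. The summed level of these markers ran from 162 to 214 CPM in the control, 121 to 181 in the iohexol, 167 to 184 in the cisplatin and 358 to 385 in the vancomycin samples. The summed level of 5 epithelial markers ran from 763 to 852, 634 to 770, 1232 to 1283 and 1227 to 1342 CPM, respectively. The 14 markers of other cell types and nephron segments summed to 39.3 to 49.3, 33.3 to 36.3, 52.5 to 56.6 and 70.2 to 78.7 CPM in the same order. A sum follows its most abundant markers, and some single markers went the other way. Of 4 epithelial markers tested with cisplatin, EPCAM was called lower (log2 fold change -1.51) and 0 higher. Of 4 proximal tubule markers tested with iohexol, ANPEP and CUBN were called higher (1.75 and 1.48) and 0 lower. Of 4 other markers tested, PECAM1 was called lower with vancomycin (-3.87) and 2 higher. DCN was called lower with cisplatin (-2.19) and 1 higher. The part of these marker shifts in the values below was not tested. All samples are of 1 cell line, and in bulk RNA fewer cells with a transcript and less of it per cell cannot be told apart.

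In CPM, cisplatin and vancomycin samples held more EGR1, EGR3, IER5 and SERTAD1 than the controls, and iohexol samples held less EGR1. With cisplatin, 4 of the 10 genes were called higher (EGR1, EGR3, IER5 and SERTAD1) and KLF6 was called lower, where 7.62% of all 15876 genes tested were called higher and 8.72% lower. With vancomycin, the same 4 genes and ZFP36 were called higher and none lower, where 10.8% of 15819 genes were called higher and 7.65% lower. With iohexol, EGR1 was called lower and none higher among the 9 genes tested, EGR3 having failed the filter on low counts, where 4.02% of 15657 genes were called higher and 1.25% lower. The 3 comparisons share the control samples, and since the genes were chosen on these contrasts nothing is read from these shares.

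**Figure D2:**
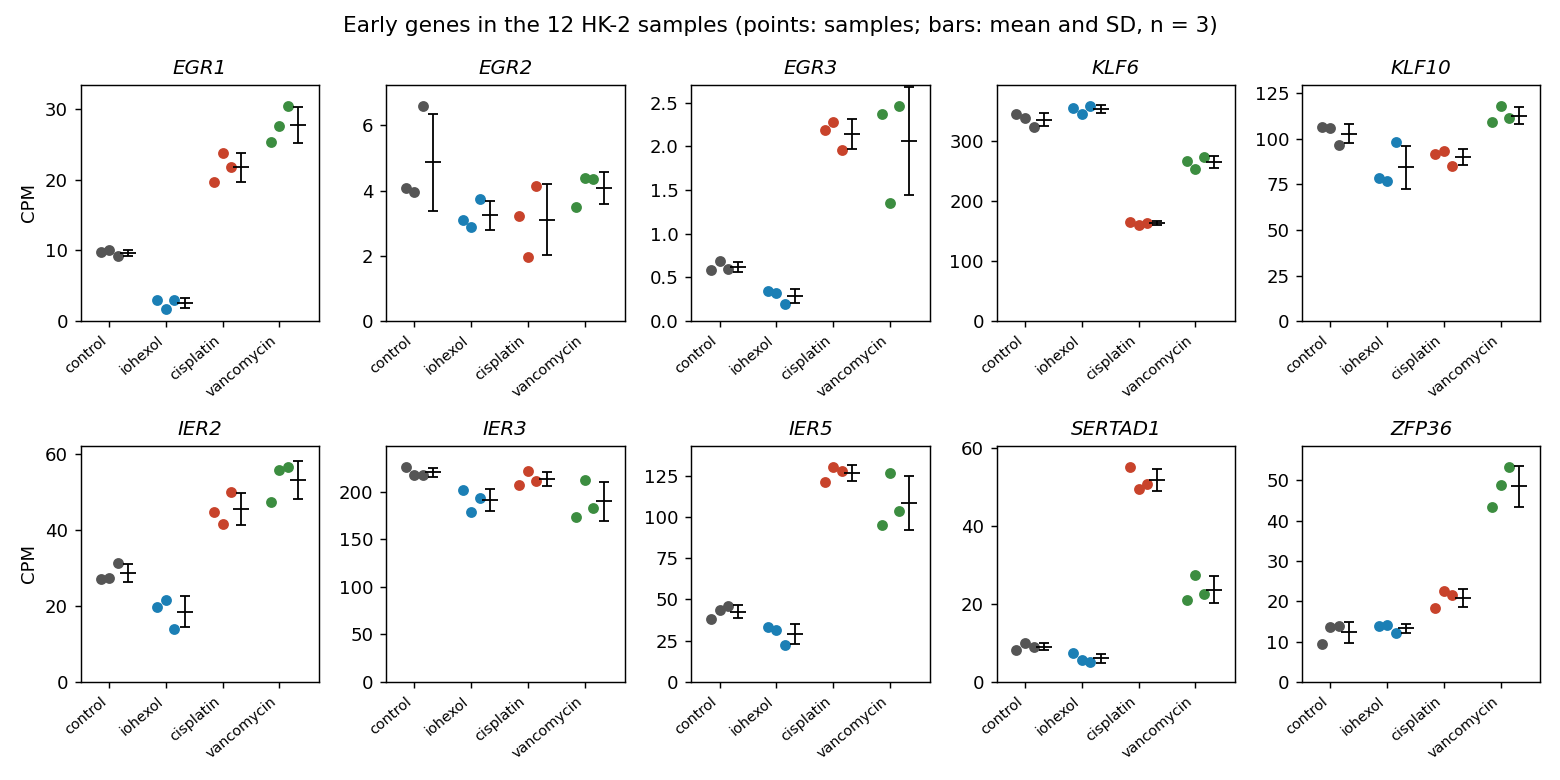
CPM of the 10 early genes in each of the 12 samples (points), with the mean and SD of each group (bars, n = 3), on linear axes that start at 0. EGR1, SERTAD1 and IER5 samples of the cisplatin and vancomycin groups all lie above the controls, EGR1 iohexol samples lie below them, and KLF6 is lowest with cisplatin.

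EGR1 (ENSG00000120738, chr5:138465490-138469315, plus strand) separated all 4 groups. Gene spans here and below are those of the count table, which equal GENCODE 29 on GRCh38. Its control samples were at 9.72, 10.0 and 9.21 CPM and its iohexol samples at 2.97, 1.73 and 3.01 CPM. Cisplatin samples were at 19.7, 23.7 and 21.7 CPM and vancomycin samples at 25.3, 27.6 and 30.3 CPM. No 2 groups overlapped, in the order iohexol, control, cisplatin and vancomycin. The means were 2.57 ± 0.729 CPM (SD, n = 3) with iohexol, 9.66 ± 0.421 in the control, 21.7 ± 2.04 with cisplatin and 27.7 ± 2.52 with vancomycin, the highest being 10.8 times the lowest. The log2 fold changes against the control were -1.90 (SE 0.21), 1.16 (SE 0.12) and 1.48 (SE 0.13) for iohexol, cisplatin and vancomycin.

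EGR3 (ENSG00000179388, chr8:22687659-22693302, minus strand) was read at low depth, with 8 to 11 counts per control sample, 3 to 5 per iohexol sample, 33 to 37 per cisplatin sample and 20 to 40 per vancomycin sample. Control samples were at 0.581, 0.691 and 0.592 CPM and iohexol samples at 0.346, 0.320 and 0.200 CPM, 1 of them at the floor of 3 counts. Cisplatin samples were at 2.19, 2.28 and 1.95 CPM, and vancomycin samples at 2.37, 1.35 and 2.46 CPM. Both sets lay above every control, and they overlapped each other. EGR3 had log2 fold changes of 1.76 (SE 0.33) with cisplatin and 1.68 (SE 0.39) with vancomycin.

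EGR2 (ENSG00000122877, chr10:62811996-62919900, minus strand) did not follow EGR1 in its levels. Its promoter window 3 holds a CArG box and TGACG, and its windows 1 and 2 hold neither. None of these windows reaches the upstream end of the gene span, at 62919900. Which start these cells use, and any part of these elements in the levels, was not tested. Control samples were at 4.06, 3.96 and 6.58 CPM, iohexol samples at 3.11, 2.88 and 3.74, cisplatin samples at 3.22, 1.97 and 4.14 and vancomycin samples at 3.50, 4.37 and 4.36. Neighbouring groups overlapped throughout, and only the iohexol samples lay wholly below the controls. EGR2 had log2 fold changes of -0.57 (SE 0.25) with iohexol, -0.65 (SE 0.26) with cisplatin and -0.29 (SE 0.23) with vancomycin, none called. EGR4, the remaining EGR gene, had 0 counts in the control and iohexol samples, at most 1 in a cisplatin sample and at most 4 in a vancomycin sample.

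KLF6 (ENSG00000067082, chr10:3775996-3785281, minus strand) was the one early gene called lower with cisplatin. Its control samples were at 344, 337 and 323 CPM and its cisplatin samples at 165, 159.9 and 163 CPM, 48.7% of the control mean. Vancomycin samples, at 266, 253 and 273 CPM, lay between them, and iohexol samples were at 354, 345 and 357 CPM. No groups overlapped, in the order cisplatin, vancomycin, control and iohexol. The log2 fold change with cisplatin was -1.04 (SE 0.06), and it was -0.82 and not called when samples were scaled by library size alone. The values of -0.38 (SE 0.08) with vancomycin and 0.09 (SE 0.08) with iohexol were not called.

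KLF10 (ENSG00000155090, chr8:102648779-102655902, minus strand) spanned 1.33 times between its lowest and highest group mean. Its means were 103 ± 5.44 CPM in the control (SD, n = 3), 84.5 ± 11.8 with iohexol, 90.1 ± 4.39 with cisplatin and 113 ± 4.57 with vancomycin. The cisplatin samples lay below the controls and the vancomycin samples above, while iohexol samples overlapped the controls. Its log2 fold changes were -0.27 (SE 0.11), -0.20 (SE 0.07) and 0.09 (SE 0.09) for iohexol, cisplatin and vancomycin, none called, and with library size alone the cisplatin value was 0.02.

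IER5 (ENSG00000162783, chr1:181088712-181092899, plus strand) was higher in every cisplatin and vancomycin sample than in any control. Control samples were at 38.1, 43.6 and 45.7 CPM, and iohexol samples at 33.3, 31.3 and 22.4 CPM. Cisplatin samples were at 121, 130.1 and 128 CPM and vancomycin samples at 94.9, 126 and 104 CPM. Iohexol samples lay below the controls, and the cisplatin and vancomycin samples overlapped each other. The log2 fold changes were 1.57 (SE 0.08) with cisplatin, 1.31 (SE 0.11) with vancomycin and -0.53 (SE 0.15) with iohexol, the last not called.

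IER2 (ENSG00000160888, chr19:13150415-13154908, plus strand) had the same order of group means as EGR1. Control samples were at 27.1, 27.4 and 31.4 CPM, iohexol samples at 19.8, 21.7 and 13.8, cisplatin samples at 44.7, 41.7 and 50.1 and vancomycin samples at 47.4, 55.7 and 56.6. Each drug group lay wholly outside the control range, and cisplatin and vancomycin overlapped. Log2 fold changes were -0.61 (SE 0.16), 0.67 (SE 0.09) and 0.86 (SE 0.11) for iohexol, cisplatin and vancomycin, and none was called. IER3 (ENSG00000137331, chr6:30743199-30744554, minus strand) had the narrowest range, 221 ± 4.71 CPM (SD, n = 3) in the control, 191 ± 11.8 with iohexol, 214 ± 7.28 with cisplatin and 189.9 ± 20.4 with vancomycin. Cisplatin and control samples overlapped, and the iohexol and vancomycin samples lay below the controls. Its log2 fold changes were between -0.26 and -0.05 with the 3 drugs, and the cisplatin value was 0.17 with library size alone.

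SERTAD1 (ENSG00000197019, chr19:40421592-40426025, minus strand) had the highest log2 fold change against the control of the 10 genes. Control samples were at 8.27, 9.98 and 8.82 CPM and iohexol samples at 7.39, 5.50 and 5.15 CPM. Vancomycin samples were at 20.9, 27.5 and 22.6 CPM and cisplatin samples at 55.1, 49.6 and 50.7 CPM. All 4 groups were apart, in the order iohexol, control, vancomycin and cisplatin, with the cisplatin mean at 574% and the vancomycin mean at 262% of the control. The log2 fold changes were 2.51 (SE 0.10) with cisplatin, 1.35 (SE 0.14) with vancomycin and -0.57 (SE 0.18) with iohexol, the last not called. SERTAD1 shared 4.85% of its 31-base stretches with other annotated transcripts, against at most 1.23% for the other genes, and how the counting treated reads from such stretches was not tested.

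ZFP36 (ENSG00000128016, chr19:39406813-39409412, plus strand) was highest with vancomycin. Control samples were at 9.29, 13.6 and 13.9 CPM, iohexol samples at 13.8, 14.1 and 12.0, cisplatin samples at 18.2, 22.6 and 21.6 and vancomycin samples at 43.4, 48.9 and 53.3. Iohexol and control overlapped, and cisplatin and then vancomycin stood above them without overlap. The vancomycin mean was 396% and the cisplatin mean 170% of the control. The log2 fold changes were 1.94 (SE 0.14) with vancomycin, 0.75 (SE 0.14) with cisplatin and 0.13 (SE 0.17) with iohexol, of which the vancomycin value was called.

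**Figure D3:**
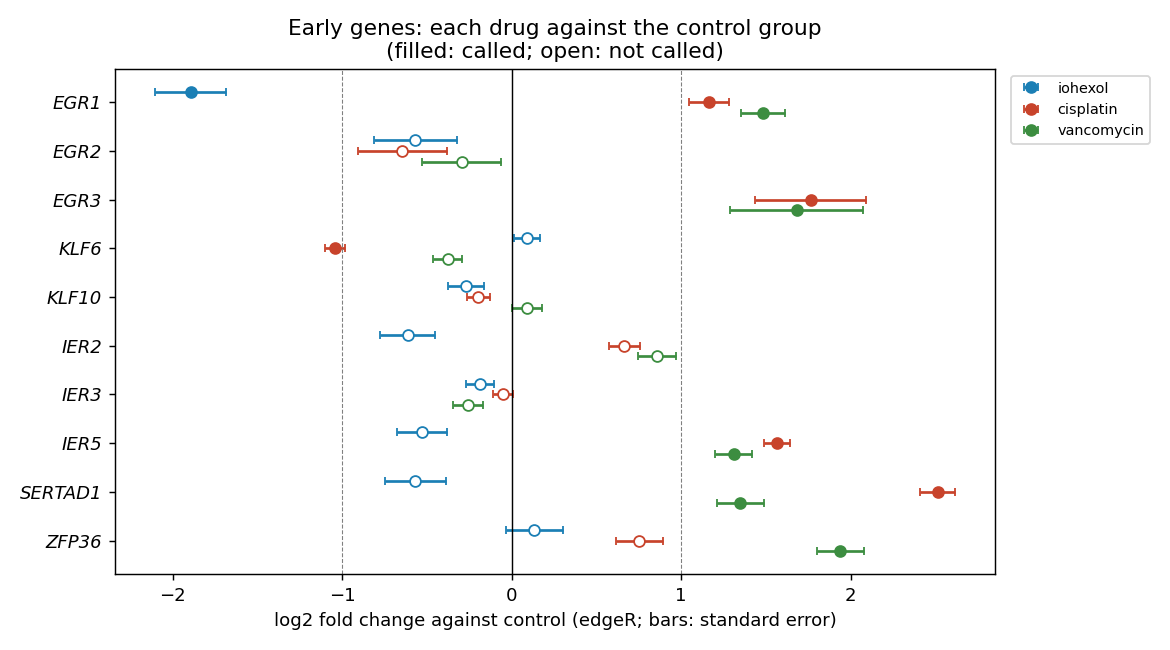
Log2 fold change against the control group for each early gene and drug, with standard errors (edgeR, 3 against 3 samples; filled points called, dashed lines at 1 and -1). EGR1 is on the left with iohexol at -1.90 and on the right with cisplatin and vancomycin, SERTAD1 with cisplatin is farthest right at 2.51, and EGR3 has no iohexol point because it failed the filter.

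Counted over the 10 genes, iohexol samples lay wholly below the controls in 7, wholly above in 1 (KLF6) and overlapped them in 2. The 7 include EGR3, which failed the filter on low counts with iohexol. Cisplatin samples lay above in 6, below in 2 and overlapped in 2, and vancomycin samples lay above in 7, below in 2 and overlapped in 1. Among all tested genes, the groups did not overlap, in either direction, in 37.9% with iohexol, 65% with cisplatin and 63.2% with vancomycin. The share of each direction was not counted, so nothing is read from the split above. Per length, the control group's levels ran from 0.128 RPKM for EGR3 (CPM per kilobase of gene length) and 3.08 RPKM for EGR1 to 54.5 RPKM for KLF6 and 163 RPKM for IER3. IER3 stood at the 99.1 percentile of 17135 genes by RPKM in the control, KLF6 at 96.1, SERTAD1 at 53.6, EGR1 at 46.5 and EGR3 at 4.97. In the cisplatin group SERTAD1 stood at the 89.5 percentile, and in the iohexol group EGR1 stood at 22.4.

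The drugs were also compared directly with each other, in 1 model fitted to all 12 samples. Against iohexol, cisplatin had EGR1, EGR3, IER2, IER5 and SERTAD1 called higher and KLF6 lower, where 6.11% of 17073 genes were called higher and 11.4% lower. The log2 differences were 3.08 (SE 0.17) for EGR1 and 3.11 (SE 0.14) for SERTAD1, and 1.30 (SE 0.14) for IER2. Vancomycin against iohexol had EGR1, EGR3, IER2, IER5, SERTAD1 and ZFP36 called higher and none lower, where 10.6% of all genes were called higher and 9.51% lower. The log2 differences were 3.44 (SE 0.17) for EGR1, 1.98 (SE 0.15) for SERTAD1 and 1.87 (SE 0.14) for ZFP36. These contrasts share samples with those above, and the doses are different agents' doses, not matched ones.

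Cisplatin against vancomycin set SERTAD1 and ZFP36 apart in opposite directions. SERTAD1 was higher with cisplatin, at a log2 difference of 1.12 (SE 0.12), and ZFP36 was lower, at -1.23 (SE 0.13), where 12.2% of all genes were called higher and 16.2% lower. With library size alone ZFP36 was at -0.89 and not called. EGR1 differed by -0.36 (SE 0.13), KLF6 by -0.70 (SE 0.07), IER5 by 0.22 (SE 0.12) and EGR3 by 0.04 (SE 0.30), none called.

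Genes of the same pathways were counted from lists that, like the 10 genes, were written with earlier results of these samples known. The adjusted p-values of list genes below are therefore a description of these samples and support nothing further. Among 27 other early response genes, 9 were called higher and 1 lower with cisplatin, and 9 higher and 5 lower with vancomycin. With iohexol none was called higher and 1 lower of 26 tested, where 7 were higher at an unadjusted p under 0.05. With the adjusted p alone, 3 of the 26 were higher and 9 lower with iohexol, against 1754 and 1529 of all 15657 genes. Over all genes tested, 7.62% were called higher and 8.72% lower with cisplatin, 10.8% and 7.65% with vancomycin and 4.02% and 1.25% with iohexol, and these shares are the background of the calls in every list below. The share of all genes at an unadjusted p under 0.05 was not counted, so nothing is read from such counts, here or below. The median log2 fold change of the other early response genes was 0.53 with cisplatin, 0.54 with vancomycin and -0.01 with iohexol, against 0.01, -0.01 and 0.01 over all genes tested. ARC, an activity-regulated cytoskeletal gene, rose with cisplatin by 3.06 (SE 0.28, edgeR adjusted p = 4.62e-08) and with vancomycin by 3.22 (SE 0.30, edgeR adjusted p = 2.23e-09) on the log2 scale, and it could not be fitted under a filter of 10 counts in every sample. NR4A1, an orphan nuclear receptor, rose from 6.59 ± 0.52 CPM in the control (SD, n = 3) to 40.4 ± 4.54 with vancomycin (log2 fold change 2.58, edgeR adjusted p = 8.09e-14). NR4A1 was also called higher with cisplatin (log2 fold change 2.34, edgeR adjusted p = 1.81e-11). NR4A3, of the same receptor family, rose from 3.27 to 26.4 CPM with cisplatin (log2 fold change 3.01, edgeR adjusted p = 9.12e-12) and was at 1.69 CPM with vancomycin. The matricellular genes CTGF and CYR61 fell with vancomycin by 2.42 and 2.19 on the log2 scale (edgeR adjusted p = 1.69e-16 and 9.25e-16), and ID1, an inhibitor of DNA binding, fell with cisplatin by 1.54 (edgeR adjusted p = 1.31e-12). ID1 was also called lower with vancomycin, by 1.60 (edgeR adjusted p = 2.25e-13). With iohexol the inhibitor ID3 fell by 1.59 (edgeR adjusted p = 1.23e-06).

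Of 16 genes for SRF, its ETS cofactors and the ERK cascade, none was called with iohexol or cisplatin, and with vancomycin only the kinase RPS6KA5 was, falling by 1.05 (SE 0.12, edgeR adjusted p = 1e-07). Without vancomycin replicate 2 it was at -0.95 and not called. At an unadjusted p under 0.05, 2 of the 16 were higher and 5 lower with iohexol, 2 higher and 10 lower with cisplatin, and 4 higher with vancomycin. With the adjusted p alone, 2 were higher and 1 lower with iohexol, 2 and 9 with cisplatin, and 4 and 6 with vancomycin. Over all genes tested these were 1754 and 1529 of 15657, 4643 and 4857 of 15876, and 4595 and 4563 of 15819. DESeq2 and limma-voom also called 0 genes wherever edgeR called none of a list in a direction. Of 12 genes described as EGR1 targets, 1 was called higher and 2 lower with iohexol, and 4 higher and 2 lower with vancomycin. With cisplatin none was called higher (2 at an unadjusted p under 0.05) and 2 lower. With the adjusted p alone, 2 were higher and 9 lower with cisplatin, against 4643 and 4857 of all 15876 genes. The growth factors PDGFA and PDGFB fell with iohexol by 1.30 and 1.67 (edgeR adjusted p = 2.72e-05 and 1.73e-05), and also with cisplatin, by 1.21 and 1.08 (edgeR adjusted p = 5.9e-08 and 1.57e-08). With library size alone the cisplatin values were -0.99 and -0.86, and neither was called. GDF15, a stress cytokine, rose with iohexol by 2.15 (edgeR adjusted p = 2.07e-07) and with vancomycin by 1.69 (edgeR adjusted p = 1.09e-13). The adhesion gene ICAM1 rose with vancomycin by 1.30, while tissue factor (F3) fell by 1.75 (edgeR adjusted p = 8.38e-11 and 1.11e-13) and cyclin D1 (CCND1) fell from 293 to 86.2 CPM (edgeR adjusted p = 2.56e-14). Of the 2 EGR corepressors, NAB1 and NAB2, none was called with iohexol or cisplatin (0 with iohexol and 1 higher with cisplatin at an unadjusted p under 0.05), and NAB2 rose with vancomycin by 1.05 (SE 0.10, edgeR adjusted p = 6.16e-09), close to the fold threshold. It was at 0.97 with library size alone and at 0.98 without control replicate 1, and was then not called. The medians of the EGR1 target list were -0.22, -0.39 and 0.18 for iohexol, cisplatin and vancomycin. Any part of EGR1 in the levels of these genes was not tested.

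**Figure D4:**
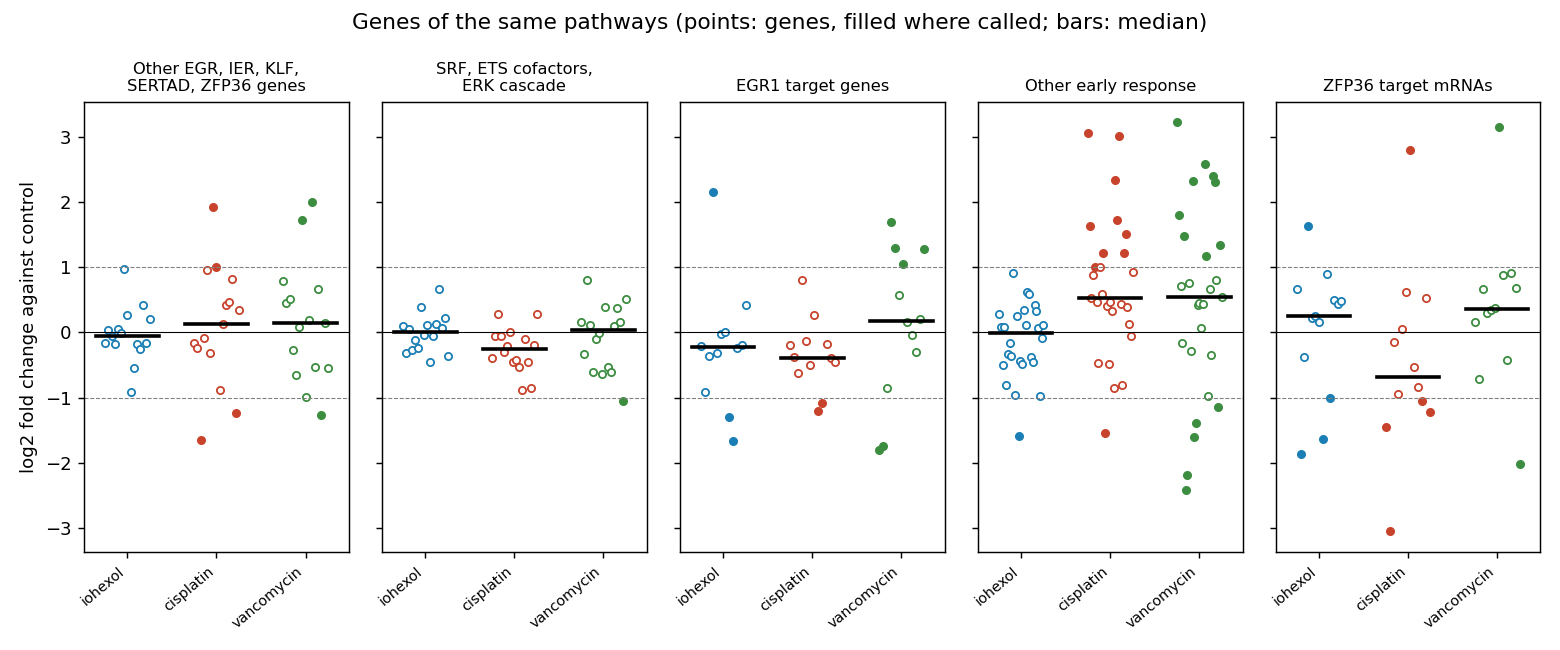
Log2 fold change against the control for tested genes of 5 pathway lists and each drug (points; filled where called; bars, median; dashed lines at 1 and -1). The other early response genes have medians of 0.53 and 0.54 with cisplatin and vancomycin, and the SRF and ERK cascade genes run from -0.88 to 0.28 with cisplatin, with a median of -0.25, and from -1.05 to 0.80 with vancomycin.

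Of the mRNAs known as ZFP36 targets, 1 was called higher and 3 lower of 13 tested with iohexol, 1 higher and 4 lower of 12 with cisplatin, and 1 higher and 1 lower of 12 with vancomycin. IL11, a cytokine, rose with cisplatin and vancomycin by 2.80 and 3.15 (edgeR adjusted p = 1.7e-13 and 2.73e-16) and fell with iohexol by 1.64 (edgeR adjusted p = 5.41e-05). TNF fell with vancomycin by 2.02 (edgeR adjusted p = 5.93e-07), and the chemokine CCL20 fell with cisplatin by 3.05 and with iohexol by 1.87 (edgeR adjusted p = 5.35e-13 and 7.27e-07). TNF was also called lower with cisplatin, by 1.22 (edgeR adjusted p = 0.000105). CCL2, near 1.23 CPM in the control, fell with cisplatin by 1.46 (edgeR adjusted p = 0.0203), and CXCL1, at 0.317 CPM in the control, had a log2 fold change of 1.63 with iohexol (edgeR adjusted p = 0.0223). The CXCL1 call was lost in 8 of 14 alternatives, among them DESeq2 (adjusted p = 0.0623), the replicate block (0.0569), the fit of all 12 samples (0.0859) and the fits without control replicate 2 or 3 or iohexol replicate 1 or 2 (adjusted p = 0.0649 to 0.114). The CCL2 call was lost without control replicate 3 or cisplatin replicate 1 or 2 (edgeR adjusted p = 0.0633 to 0.15), and both genes were too low for the filter of 10 counts in every sample. Medians were 0.25, -0.68 and 0.35 for iohexol, cisplatin and vancomycin.

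Among other members of the same families, none of 15 was called with iohexol, where 3 were higher and 2 lower at an unadjusted p under 0.05. KLF4 and KLF5 rose with cisplatin by 1.92 and 1.00 (edgeR adjusted p = 2.76e-10 and 9.71e-09). KLF5 stood on the fold threshold, at 0.93 to 0.98 and not called with all genes of at least 1 count, without control replicate 2 or 3 and without cisplatin replicate 2. With cisplatin KLF13 and ZFP36L1, a paralog of ZFP36, fell by 1.65 and 1.23 (edgeR adjusted p = 3.7e-10 and 8.76e-12). KLF9 and KLF4 rose with vancomycin by 2.00 and 1.73 (edgeR adjusted p = 3.68e-10 and 5.14e-10), and SERTAD4 fell by 1.26 (edgeR adjusted p = 3.54e-08). Of 6 cell cycle partners of SERTAD1, none was called with cisplatin or iohexol (1 higher and 3 lower with cisplatin and 3 lower with iohexol at an unadjusted p under 0.05), and with vancomycin CDKN2A, the CDK4 inhibitor p16, rose by 1.16 (edgeR adjusted p = 3.72e-10) while CCND1 fell, as given above. Of 8 genes of the TGF-β and SMAD pathway that KLF10 is known to work with, SMAD3 fell with cisplatin by 1.31 (edgeR adjusted p = 3.44e-12) and none was called with iohexol or vancomycin (5 lower with iohexol, and 1 higher and 4 lower with vancomycin, at an unadjusted p under 0.05).

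The genes most like each early gene in profile were found by the root mean square (RMS) difference of centred log2 CPM over the 12 samples, a measure that has no test. TRAF1, a TNF receptor adaptor, was closest to EGR1 at an RMS of 0.397 among 4362 candidates and to EGR3 at 0.367 among 5503, followed for EGR1 by KCNG1 and ANGPTL4 at 0.453 and 0.482. TMEM158 was closest to SERTAD1 at 0.359, CLTB to IER5 at 0.214, MAP3K6 to IER2 at 0.152 and RAB5IF to ZFP36 at 0.130. TNS3 was closest to KLF6 at 0.0751. Among the early genes themselves, KLF10 and IER3 were closest to each other at 0.216, followed by EGR2 and KLF10 at 0.366 and by IER2 and IER5 at 0.373, while EGR1 and KLF6 were farthest apart at 1.69. EGR1 and EGR2 stood at 1.38 from each other.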

How the data were processed

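Poly(A) RNA of 12 HK-2 samples was sequenced, and the authors deposited read counts per gene as whole numbers, without normalization. The submitters' processing notes name CASAVA 1.8, fastp, HISAT2 2.0.5, featureCounts 1.5.0-p3 and DESeq2 1.20.0, and the genome build, annotation and strand setting are not given in the sources used here. Groups, replicate numbers and treatments came from the labels. Total counts of 14057282 to 18177109 per sample set the precision, and low genes such as EGR3 rest on few counts. Of the gene spans in the table, those of the 10 genes equal GENCODE 29 on GRCh38. EGR3, IER2 and IER3 overlap antisense genes that held at most 7 counts over the 12 samples.

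The 10 genes and all lists were chosen with earlier results of these data known. With edgeR 4.0.16 in R 4.3.3, each drug was fitted with the control in a separate quasi-likelihood model (TMM, filterByExpr, min.count 10 and min.total.count 15), adjusted by Benjamini-Hochberg over the genes tested. Direct contrasts came from 1 fit of all 12 samples, and the SE is the log2 fold change divided by the square root of F. CPM used TMM factors, and RPKM also the deposited gene length. Likeness used log2 CPM with a prior count of 0.5, among genes with a spread of at least 0.5 times that of the early gene. From each list, every called gene was named where at most 8 were tested, otherwise the 2 highest and 2 lowest called genes of each drug. Tested on simulated data with the library totals of the cisplatin and control samples, the fit called 200 of 200 changed genes and 0 of the unchanged among 15282. Gene means came from the controls, and all genes had the same fixed spread. Changes were planted beyond the fold threshold and only in well-read genes. The simulation therefore does not cover low genes such as EGR3, changes near the threshold or the spread of the real replicates. Alternatives were DESeq2 1.42.0, limma 3.58.1 with voom, other scalings, filters and thresholds, a replicate block, and leaving out each sample. Leaving out samples in the direct contrasts was added after seeing the data. Sequences were searched and figures drawn with Python 3.11.15 and matplotlib 3.10.9.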

Additional observations from a re-analysis of the deposited data

How the results depend on the processing

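The calls of the 10 early genes did not change with DESeq2, limma-voom, RLE factors, a fit of all 12 samples or with any 1 sample left out (4 higher and 1 lower with cisplatin, 5 higher and 0 lower with vancomycin, 0 higher and 1 lower with iohexol, and 14 calls over the 3 direct contrasts). EGR3 gave no value under the filter of 10 counts in every sample. Scaling by library size alone moved the median over all genes tested with cisplatin from 0.01 to 0.23 on the log2 scale. It ended the KLF6 call, leaving 0 early genes lower with cisplatin, and also KLF6 against iohexol and ZFP36 against vancomycin. It kept the order of the 4 groups in 6 of 10 genes, and EGR2, KLF10, IER2 and IER3 changed order. The split of higher and lower calls then went from 1210 and 1384 to 1849 and 997 with cisplatin, from 1044 and 1943 to 1403 and 1654 for cisplatin against iohexol, from 1808 and 1624 to 1293 and 2312 for vancomycin against iohexol, and from 2089 and 2772 to 3458 and 1876 for cisplatin against vancomycin. With the adjusted p alone, all genes called rose from 826 to 3283 with iohexol, from 2594 to 9500 with cisplatin and from 2923 to 9158 with vancomycin. These were 21%, 59.8% and 57.9% of the genes tested. For iohexol, cisplatin and vancomycin, the early genes called higher then numbered 0, 6 and 6, and those called lower 4, 3 and 2. Of 96 list genes tested with each drug, 35, 77 and 77 were then called. Requiring 10 counts in every sample left 1691 genes called with cisplatin. With 1 sample left out, iohexol called 666 to 944 genes, cisplatin 2588 to 2736 and vancomycin 2858 to 3134. Whether replicate numbers pair the samples was not settled. Deviations of same-numbered drug and control samples correlated at -0.182 to 0.101. The closest control had the same number for every cisplatin and vancomycin sample and for no iohexol sample. With the replicate block, 725, 2603 and 2932 genes were called for iohexol, cisplatin and vancomycin, with no change in a call of the early genes. EGR3, at 3 to 11 counts in the iohexol and control samples, had a log2 fold change of -1.11 and was not called when genes with at least 1 count were kept.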
